A study of Rattus norvegicus with 12 samples.

Results

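Expression of 7 genes of the conducting airways was followed in whole lung of diabetic and control rats. The genes were Scgb1a1, Aldh1a1, Gabrp and Retnla, taken as genes of secretory airway cells, and Foxj1, Tekt1 and Spa17, taken as genes of ciliated cells. Every probe set that the annotation of the Affymetrix RAE 230A array assigned to 1 of these genes alone was used, which gave 7 probe sets, 1 for each gene, among 15866 on the array without its control probe sets. These are 7 of the 10411 genes that the array measures with a probe set of their own. Symbols in use earlier also counted as a match. The diabetic group held 7 Wistar rats injected intraperitoneally with streptozotocin at 8 weeks of age, and the control group held 5 Wistar rats injected with buffer at the same age. All rats were male and 12 weeks old when lungs were taken, 4 weeks after the injection and after a fast. Each array carried RNA of 1 animal, and no samples were pooled. Streptozotocin is toxic to pancreatic beta cells, so the model lacks insulin rather than a response to it, and direct effects of the toxin on the lung cannot be told apart from those of diabetes. Values are MAS 5.0 signals, intensities on a linear scale, and were taken to be scaled to a common trimmed mean on every array.

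The conducting airways are lined by an epithelium in which secretory cells and multiciliated cells alternate. Secretory cells, which in the rat bronchioles are mainly club cells, release protective proteins and metabolise inhaled chemicals. Ciliated cells carry motile cilia, built on a ring of doublet microtubules, that move mucus towards the throat. These cells are a minor part of whole lung, and in bulk RNA fewer cells of a type and less RNA per cell cannot be told apart. The surfactant protein genes Sftpc, Sftpb, Sftpa1 and Sftpd, listed here with the alveolar type II genes, gave signals of 6858 to 30073 in diabetic lung. In control lung they gave 9691 to 29964.

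The median signal of an array was 252.7 to 265.6 in diabetic lung and 259.6 to 272.0 in control lung. For GAPDH the signal at the 3' end over that at the 5' end, a ratio that depends on RNA integrity, was 1.15 ± 0.0710 in diabetic lung (SD, n = 7) and 1.32 ± 0.0778 in control lung (SD, n = 5; exact permutation test, two-sided, p = 0.00505). The same ratio of beta-actin was 2.08 ± 0.372 in diabetic lung and 2.06 ± 0.437 in control lung (exact permutation test, two-sided, p = 0.920). Diabetic animal 6 had the highest ratios of its group, 1.30 for GAPDH and 2.85 for beta-actin, and the lowest mean correlation with its own group, 0.952 against 0.957 to 0.962 in the other 6 diabetic animals. Beyond fits with these ratios as a covariate, the part of RNA integrity in the values of the airway genes was not tested.

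RefSeq promoters (build GRCr8) were at hand for 4 of the 7 genes, Scgb1a1, Aldh1a1, Retnla and Tekt1. Scgb1a1 and Aldh1a1 are shown because both were taken as secretory cell genes, with groups that overlapped for Scgb1a1 and not for Aldh1a1. Retnla is shown because it varied most between animals, and Tekt1 stands for the ciliated genes. Each is given 5′ to 3′ on the strand of its gene as the 250 bases before the annotated start. They lie at chr1:215409687-215409936 (minus strand) for Scgb1a1, chr1:227537370-227537619 (plus strand) for Aldh1a1, chr11:65426187-65426436 (minus strand) for Retnla and chr10:57479122-57479371 (minus strand) for Tekt1. Capitals mark matches to the motifs named after the sequences.
Scgb1a1: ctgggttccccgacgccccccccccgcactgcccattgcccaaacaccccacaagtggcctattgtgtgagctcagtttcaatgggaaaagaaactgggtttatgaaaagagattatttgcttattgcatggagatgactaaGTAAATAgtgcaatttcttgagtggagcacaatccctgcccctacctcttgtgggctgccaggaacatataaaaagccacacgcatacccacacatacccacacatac
Aldh1a1: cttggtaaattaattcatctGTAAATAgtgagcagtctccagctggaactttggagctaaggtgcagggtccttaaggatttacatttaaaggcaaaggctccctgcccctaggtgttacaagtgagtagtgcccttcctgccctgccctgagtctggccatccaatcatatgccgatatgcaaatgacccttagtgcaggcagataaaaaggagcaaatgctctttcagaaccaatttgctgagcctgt
Retnla: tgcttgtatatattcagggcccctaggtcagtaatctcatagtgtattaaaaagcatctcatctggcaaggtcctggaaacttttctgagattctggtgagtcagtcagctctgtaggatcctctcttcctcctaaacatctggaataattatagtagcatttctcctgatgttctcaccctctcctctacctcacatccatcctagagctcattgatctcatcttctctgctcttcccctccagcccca
Tekt1: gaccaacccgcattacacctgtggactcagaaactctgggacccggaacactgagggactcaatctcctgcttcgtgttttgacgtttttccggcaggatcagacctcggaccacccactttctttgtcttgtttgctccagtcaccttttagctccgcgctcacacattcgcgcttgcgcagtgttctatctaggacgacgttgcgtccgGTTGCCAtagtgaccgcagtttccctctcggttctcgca
On both strands 4 motifs were searched, none of which overlapped another in these windows. The forkhead motif GTAAACA, present in 3.21% of 33469 promoters of this length, and the NKX2-1 motif CACTTGA, present in 2.53%, had no match in the 4 promoters. GTTGCCA, one arm of the X-box that RFX factors of ciliated cells bind, was present in 3.67% of all promoters and matched the Tekt1 promoter, with its first base 39 bases before the start. GTAAATA, another forkhead form that was added after these letters had been read, was present in 3.04% of all promoters. It matched Scgb1a1 from 108 and Aldh1a1 from 230 bases before the start. These matches describe the letters only.

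Scgb1a1 encodes the club cell secretory protein, the secretoglobin that defines this cell type. Its signal ranged from 18571 to 28182.5 in diabetic lung, with a median of 20929.6. In control lung it was 23247, 20342, 19593, 23383.5 and 22239.5 in animals 1 to 5. The groups overlapped, with 4 of 7 diabetic animals inside the control range, 2 below it (animals 1 and 4) and 1 above it (animal 6). The mean was 21550 ± 3243 in diabetic lung (SD, n = 7) and 21761 ± 1716 in control lung (SD, n = 5). The log2 change was -0.02 (SE 0.09, adjusted p = 0.928 in limma), and the 95% interval of the fold change ran from 0.857 to 1.13. With the GAPDH ratio as a covariate the log2 change was 0.30 (unadjusted p = 0.0161, adjusted p = 0.150 in limma), of the opposite sign and outside that interval. This ratio was 1.23 to 1.44 in control animals, 1.30 in diabetic animal 6 and 1.10 to 1.17 in the other diabetic animals. Covariate and group were therefore hard to separate, and animal 6 was the highest in Scgb1a1. Without animal 6, and without the covariate, the log2 change was -0.09. In the fit of all arrays without the covariate, a fold change between 0.857 and 1.13 could not be resolved with this number of arrays. Scgb1a1 was near the top of the scale of every array, with only 2 to 10 probe sets brighter in diabetic lung and 6 to 8 in control lung. Whether its signal was limited by saturation was not tested.

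Aldh1a1 encodes a cytosolic aldehyde dehydrogenase that oxidises retinaldehyde to retinoic acid. Its signal in diabetic animals 1 to 7 was 4699.9, 4707, 2842, 5029.9, 5032, 3250.1 and 4377.5. In control animals 1 to 5 it was 5968.5, 6432, 5327, 7127 and 7249. All 7 diabetic animals lay below all 5 controls, with animals 3 and 6 lowest. The mean was 4277 ± 878 in diabetic lung (SD, n = 7) and 6421 ± 804 in control lung (SD, n = 5), so that the diabetic mean was 66.6% of the control mean. The log2 change was -0.61 (SE 0.14, 95% interval -0.91 to -0.31), with an unadjusted p of 0.000591 in limma and an adjusted p of 0.0729, so Aldh1a1 missed the threshold of 0.05. It was rank 76 of 9520 probe sets by p. Groups that do not overlap were found for 2.04% of the 9520 probe sets tested. Over 22 alternatives on the log2 scale its change ranged from -0.84 to -0.50 and its adjusted p in limma from 0.0542 to 0.169. The paralog Aldh1a2, which carries out the same reaction, had 545 ± 105 in diabetic lung (SD, n = 7) and 653 ± 76.8 in control lung (SD, n = 5; log2 change -0.28, SE 0.14, adjusted p = 0.326 in limma). Binding of related aldehyde dehydrogenase transcripts to the Aldh1a1 probe set was not tested.

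Retnla encodes resistin-like alpha, a small secreted protein that in the mouse is made by airway epithelium and macrophages in allergic inflammation. Its signal in diabetic animals 1 to 7 was 1543, 1841, 738, 2846, 2704.9, 345 and 1876. In control animals 1 to 5 it was 805, 1654.6, 1328, 1189.6 and 2149. Diabetic animals 3 and 6 lay below every control and animals 4 and 5 above every control, while the other 3 were within the control range. The highest diabetic value was 8.26 times the lowest, and the highest control value 2.67 times the lowest, the widest spread within either group among the 7 genes. The mean was 1699 ± 928 in diabetic lung (SD, n = 7) and 1425 ± 507 in control lung (SD, n = 5). The log2 change was 0.05 (SE 0.44, adjusted p = 0.971 in limma), and the 95% interval of the fold change, 0.544 to 1.96, was the widest of the 6 genes that passed the filter. With the GAPDH ratio as a covariate the log2 change of Retnla was -1.56 (unadjusted p = 0.00620, adjusted p = 0.0975 in limma). This is of the opposite sign and outside the 95% interval without the covariate, -0.88 to 0.97 on the log2 scale. Diabetic animal 6, the only diabetic animal with a GAPDH ratio in the control range, had the lowest Retnla signal. Without this animal, and without the covariate, the log2 change was 0.38. Macrophage markers were above 0 on the log2 scale for 3 of the 4 tested genes, as given further on, and their part in the values of Retnla was not tested.

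Gabrp encodes the pi subunit of the GABA type A receptor, a chloride channel subunit found in epithelia outside the brain. Its signal ranged from 32.9 to 60.7 in diabetic lung, with a median of 57.0, and from 35.9 to 84.3 in control lung, with a median of 62.3. The probe set was below the signal of the filter, 170.0, on all 12 arrays and was therefore not among the 9520 probe sets tested. Of the 7 diabetic animals 6 lay within the control range and 1 below it. In a fit without the filter the log2 change was -0.30 (SE 0.25). Whether this signal exceeds the background of the probe set was not tested.

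**Figure D1:**
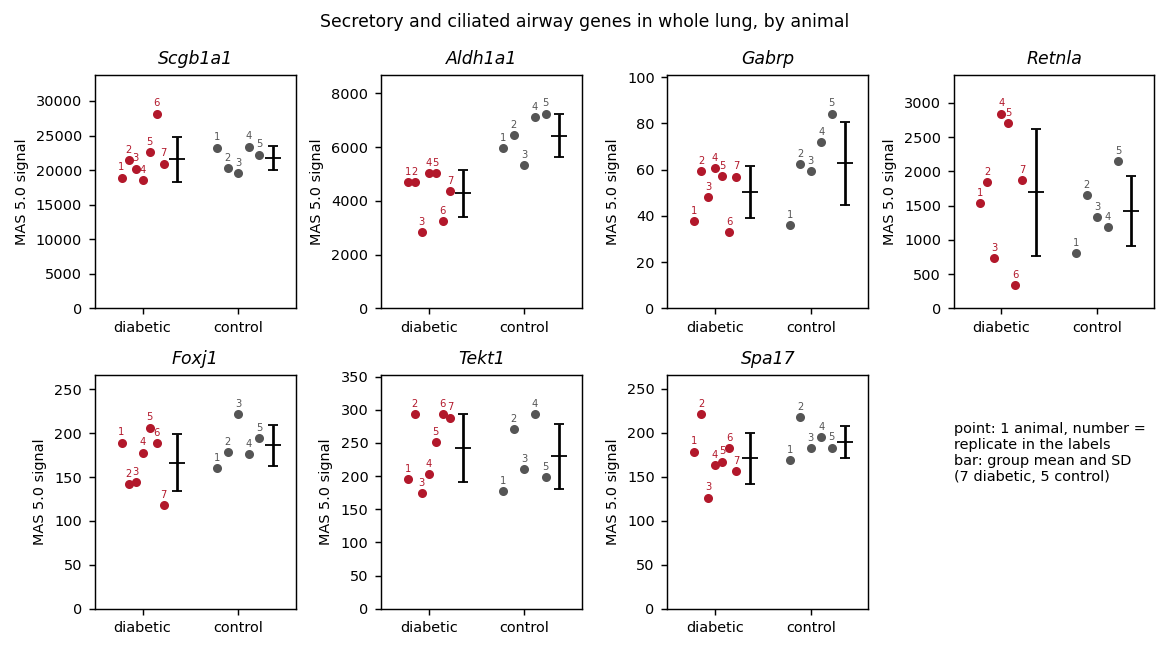
MAS 5.0 signal of the 7 genes in each of 7 diabetic (red) and 5 control (grey) animals, on linear axes that start at 0, with the mean and SD of each group in black. The groups are apart for Aldh1a1, with 2842 to 5032 in diabetic lung and 5327 to 7249 in control lung, and overlap for the other 6 genes.

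Of the genes of ciliated cells, Foxj1 encodes the forkhead factor that switches on the programme of motile cilia. Its signal in diabetic animals 1 to 7 was 189, 142, 144, 178, 206, 189 and 118, and in control animals 1 to 5 it was 161, 179, 222, 176 and 194. The log2 change was -0.18 (SE 0.15, adjusted p = 0.592 in limma), and the 95% interval of the fold change was 0.709 to 1.10. Diabetic animals 2, 3 and 7 were below all controls and the other 4 were within their range. Tekt1 encodes tektin 1, a filament protein of the microtubules of cilia and flagella. It had 174 to 294 in diabetic lung, with a median of 251, and 178 to 293 in control lung, with a median of 210.5. These ranges were nearly the same (log2 change 0.07, SE 0.17, adjusted p = 0.856 in limma, 95% interval of the fold change 0.823 to 1.35). Spa17 encodes sperm autoantigenic protein 17, a protein of sperm flagella and motile cilia that binds kinase anchoring proteins. Its signal in diabetic animals 1 to 7 was 178.5, 221, 126, 163, 167, 182 and 157, and in control animals 1 to 5 it was 169, 217, 182.5, 195 and 183. The groups overlapped, with 4 of 7 diabetic animals below the lowest control, 1 above the highest and 2 between them (log2 change -0.16, SE 0.13, adjusted p = 0.586 in limma, 95% interval of the fold change 0.735 to 1.09).

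The probe sets of Foxj1 and Spa17 were close to the filter. Foxj1 was at or above a signal of 170.0 in 4 of 7 diabetic and 4 of 5 control animals, and Spa17 in 3 of 7 diabetic and 4 of 5 control animals. Tekt1 was above it on all 12 arrays. On the log2 scale the diabetic mean of Foxj1 and of Spa17 was below the filter and the control mean above it. Both therefore passed only through their control values. Within a group the highest signal of these 3 genes was at most 1.75 times the lowest in diabetic lung and at most 1.65 times in control lung.

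In all, 6 of the 7 genes passed the filter, Foxj1 and Spa17 only through their control values. Of these 6, 0 passed an adjusted p of 0.05 in limma, as did 0.168% of all probe sets tested, and 1 (Aldh1a1) had an unadjusted p under 0.05. That is 16.7% of the 6 genes, against 16.4% of all 9520 probe sets, so the count is at the background of the array. The median log2 change was -0.09 for the 6 genes and -0.01 over all probe sets tested.

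Other genes of secretory cells were examined from a list of 35 without the 4 described above, of which 23 were on the array and 15 passed the filter. At an unadjusted p under 0.05 in limma 2 were higher and 2 lower in diabetic lung, shares to be read against 7.75% of all probe sets higher and 8.68% lower, and 0 passed an adjusted p of 0.05. Foxa2, a forkhead factor of the lung epithelium, had 923 ± 127 in diabetic lung (SD, n = 7) and 699.6 ± 65.4 in control lung (SD, n = 5), with a log2 change of 0.39 (adjusted p = 0.0988 in limma). Cldn10, a tight junction claudin of club cells, had 362 ± 93.6 in diabetic lung and 249.8 ± 39.3 in control lung (log2 change 0.51, adjusted p = 0.162 in limma). Cyp4b1, a cytochrome P450 of the lung that oxidises fatty acids and foreign chemicals, had 4128 ± 354 in diabetic lung and 5202 ± 799 in control lung (log2 change -0.32, adjusted p = 0.123 in limma). Slpi, an inhibitor of neutrophil elastase, had 379.6 ± 57.4 in diabetic lung and 496 ± 128 in control lung (log2 change -0.37, adjusted p = 0.215 in limma). The 4 genes that come next by p did not reach an unadjusted p of 0.05: the water channel gene Aqp4 (log2 change 0.48), the mucosal scavenger gene Dmbt1 (-0.36), Pigr, the receptor that carries immunoglobulin A into the lumen (0.18), and Cyp2f4, the club cell P450 (-0.26). Over the 15 genes the log2 change ran from -0.37 to 0.51 with a median of 0.10, and 9 of 15 were above 0 (10 with each array centred on its median, where Muc1 was above 0).

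Of 76 further genes of ciliated cells 13 were on the array and 8 passed the filter. Of these 8, 0 had an unadjusted p under 0.05 in limma and 0 passed the adjusted threshold. All 8 had a log2 change below 0 as deposited and after quantile normalization, and 7 of 8 with each array centred on its median, where Cfap20 was above 0. Foxj1 and Spa17, which passed the filter only through their control values, were also below 0 and Tekt1 above it under these 3 scalings. Odf2, a protein of the basal body, had -0.26 (SE 0.13), the cilium transport gene Ift172 had -0.25 (SE 0.14), and Tubb4b, Cfap36, Tppp3, Nme7, Cetn2 and Cfap20 had -0.09 to -0.02. The median of these 8 was -0.08, against -0.01 over all probe sets tested, of which the share below 0 was not counted. The signals of all 16 ciliated genes on the array, Foxj1, Tekt1 and Spa17 included, summed to 11142 to 12636 in diabetic animals and to 12716 to 13233 in control animals. These ranges do not overlap, and without Foxj1, Tekt1 and Spa17 they do not either, at 10697 to 12073 and 12101 to 12657. Of single probe sets tested 2.04% had groups that do not overlap, and the share for sums was not counted. With each array centred on its median the sums of all 16 genes overlap. They were then 11317 to 12967 in diabetic animals and 12313 to 13235 in control animals. After quantile normalization they do not overlap, at 11096 to 12667 in diabetic animals and 12885 to 13165 in control animals. Both rescalings of the lists were added after the data had been seen. Most of each sum came from Tppp3 and Tubb4b. Tppp3 had a mean of 3982 in diabetic and 4183 in control lung, and Tubb4b had 3670 in diabetic and 3897 in control lung. Tppp3 encodes a protein that binds tubulin and Tubb4b a tubulin, neither of them confined to ciliated cells. No test was made of this sum.

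**Figure D2:**
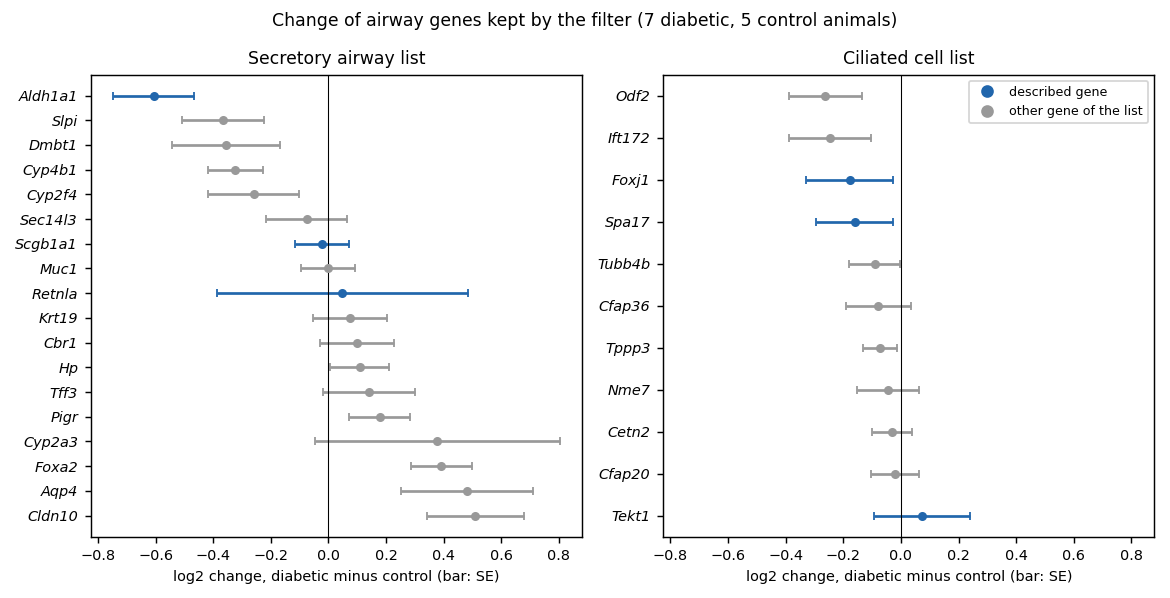
Log2 change (horizontal axis, diabetic minus control) with its standard error of the secretory list (left, 18 genes) and the ciliated list (right, 11 genes) that passed the filter. The genes described one by one are in blue, Aldh1a1 is lowest at -0.61, and 10 of the 11 ciliated genes lie below 0 (9 of 11 with each array centred on its median, where Cfap20 is above 0). Foxj1 and Spa17, counted among those below 0, passed the filter only through their control values. The share of all probe sets below 0 was not counted.

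Markers of other lung cells were read beside the airway genes. Of 8 basal cell markers 2 passed the filter, Itga6 (log2 change -0.30, adjusted p = 0.162 in limma) and Itgb4 (0.21). The other 6 had log2 changes of -0.11 to 0.90 in a fit without the filter. Of 9 neuroendocrine markers on the array 2 passed it, Syp (-0.33, adjusted p = 0.291 in limma) and Ddc (-0.05). Of 8 cartilage markers on the array 0 passed, and their signals summed to 356 to 546 in diabetic lung and 413 to 599 in control lung. Of 7 smooth muscle genes tested only Smtn (-0.33) had an unadjusted p under 0.05 in limma, Acta2 (-0.25) and Des (0.09) did not, and the list summed to 3916 to 6033 in diabetic lung and 4543 to 6252 in control lung. Of 8 alveolar type II genes tested Slc34a2 (0.17) had an unadjusted p under 0.05, and Napsa (0.19) and Lpcat1 (-0.16) did not. Of 7 alveolar type I genes tested Aqp5 (-0.52), Hopx (0.23) and Ager (-0.24) did. Of 4 macrophage genes tested Mertk (0.30) and Csf1r (0.29) had an unadjusted p under 0.05, Cd68 (0.29) and Arg1 (-0.11, named after its value was seen) did not, and the macrophage list summed to 2330 to 3906 in diabetic lung and to 2187 to 2715 in control lung. Over all probe sets tested 16.4% had an unadjusted p under 0.05. None of the marker genes named here passed an adjusted p of 0.05. Their part in the values of the 7 airway genes was not tested.

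Whether the 7 genes varied together from animal to animal was examined on deviations of log2 signal from the mean of each group, over all 21 pairs and 12 animals. Pearson's r ranged from -0.63 to 0.81. After Benjamini-Hochberg adjustment 0 pairs passed by Pearson's r and 2 by Spearman's rho (permutation test within groups, two-sided, 100000 draws). Retnla and Aldh1a1 had r = 0.81 (permutation p = 0.0124, adjusted 0.115) and rho = 0.87 (permutation p = 0.00179, adjusted 0.0376). Retnla and Gabrp had r = 0.74 (permutation p = 0.00459, adjusted 0.0964) and rho = 0.77 (permutation p = 0.00461, adjusted 0.0484). Without the 2 animals farthest from the median of one gene of the pair, neither relation passed, with r = 0.51 without diabetic animals 3 and 6 (permutation p = 0.217) and r = 0.53 without control animal 1 and diabetic animal 6 (permutation p = 0.160). With only 1 of these animals left out, r was 0.84 without diabetic animal 3 and 0.80 without diabetic animal 6 for Aldh1a1. For Gabrp it was 0.77 without control animal 1 and 0.64 without diabetic animal 6. Within the 7 diabetic animals alone r was 0.88 for Aldh1a1 (exact permutation test, p = 0.0258, adjusted 0.408) and 0.81 for Gabrp (exact permutation test, p = 0.0389, adjusted 0.408), and no value is given for the 5 control animals alone, since correlations were limited to at least 6 animals. The values of Gabrp are all below the filter.

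Among the ciliated genes, Tekt1 and Spa17 had r = 0.67 (permutation p = 0.0165, adjusted 0.115) and rho = 0.64 (permutation p = 0.0404, adjusted 0.212), and r = 0.43 (permutation p = 0.248) without control animal 1 and diabetic animal 3. Without diabetic animal 3 alone r was 0.53. Foxj1 had r = -0.15 with Tekt1 (rho = -0.15, permutation p = 0.659 for r) and r = 0.15 with Spa17 (rho = 0.18, permutation p = 0.708 for r). Without diabetic animals 2 and 7 these values of r were 0.35 (permutation p = 0.356) and 0.57 (permutation p = 0.121). Scgb1a1 had r = -0.23 with Aldh1a1 (rho = -0.13, permutation p = 0.552 for r, and r = 0.40 without diabetic animals 4 and 6) and r = -0.63 with Retnla (rho = -0.38, permutation p = 0.0699 for r, adjusted 0.300), and the value with Retnla was 0.12 without the same animals.

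**Figure D3:**
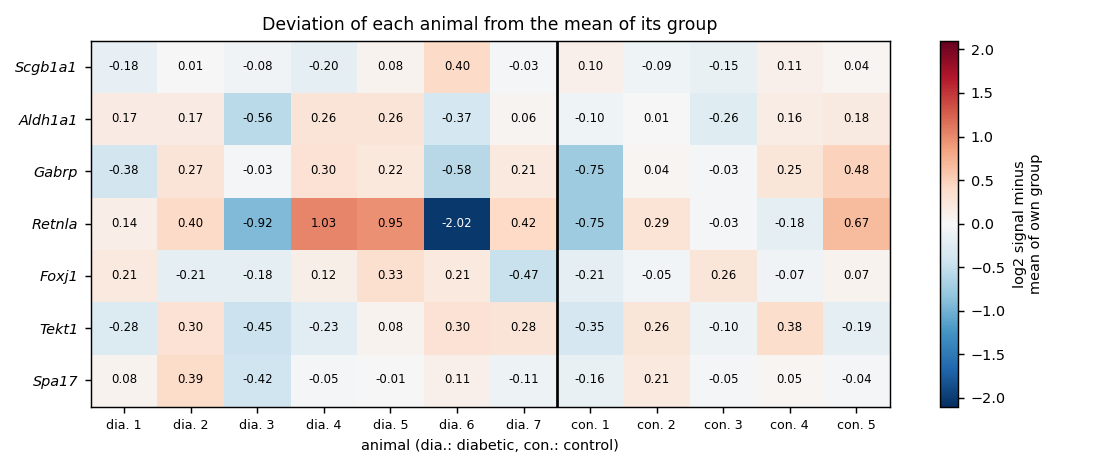
Log2 signal of each of the 7 genes in each animal minus the mean of its group, with diabetic animals 1 to 7 left of the black line and control animals 1 to 5 right of it. The darkest cell is Retnla in diabetic animal 6, at -2.02, where Scgb1a1 stood at 0.40.

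The genes whose deviations were most like those of a given gene were taken from 7030 other genes that passed the filter, by Pearson's r over the 12 arrays. These are the highest of many values and are given as a description. For Scgb1a1 they were Rpl27a (r = 0.95) and Rpl19 (0.93), which encode ribosomal proteins, the mitochondrial gene COX2 (0.94), Sftpc (0.93) and Aldh2 (0.92). Without diabetic animals 4 and 6 these values were 0.77 to 0.93. Sftpc, a gene of alveolar type II cells and not of club cells, was highest in diabetic animal 6 of its group as Scgb1a1 was, at 30073 against 21484 to 24899 in the other 6. The highest signal on that array was 30355, against 21948 to 25646 on the other diabetic arrays and 22064.5 to 30536 on the control arrays. For Foxj1 the 5 genes were Cdk16 (0.82), Nfic (0.81), B3gat3, Cndp1 and Got1 (0.77 each), none of them in the ciliated list. Without diabetic animals 2 and 7 their r was 0.36 (Cndp1) to 0.91 (Nfic).

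Retnla and Aldh1a1 were added to this comparison after their values had been seen. The genes most like Retnla were Olfml3 (r = 0.94), Slc39a14 (0.94), Col1a2 (0.93), Nt5dc2 (0.93) and Oaz2 (0.93), and without diabetic animals 3 and 6 their r was 0.64 to 0.79. Col1a2 encodes a chain of type I collagen, made by fibroblasts, and Olfml3 a secreted matrix protein. Col1a2 had 1523, 1276, 946, 1581, 2064, 571 and 1768 in diabetic animals 1 to 7 and 1958 to 2832.5 in the 5 control animals. Its 2 lowest values were those of diabetic animals 3 and 6, as for Retnla, Aldh1a1 and Olfml3. The log2 change between the groups was -0.94 for Col1a2 (unadjusted p = 0.00164, adjusted p = 0.0926 in limma) and -0.85 for Olfml3 (adjusted p = 0.250), against 0.05 for Retnla. For Aldh1a1 the 5 genes were Tgfb1i1 (r = 0.94), Mrpl14 (0.93), Oaz2 (0.92), Prpsap2 (0.91) and Pik3r3 (0.91), with 0.55 to 0.87 without diabetic animals 3 and 6. Oaz2, which encodes an inhibitor of ornithine decarboxylase, was among the 5 for both genes. It had 1394 to 2196 in diabetic lung and 2180 to 2593 in control lung.

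**Figure D4:**
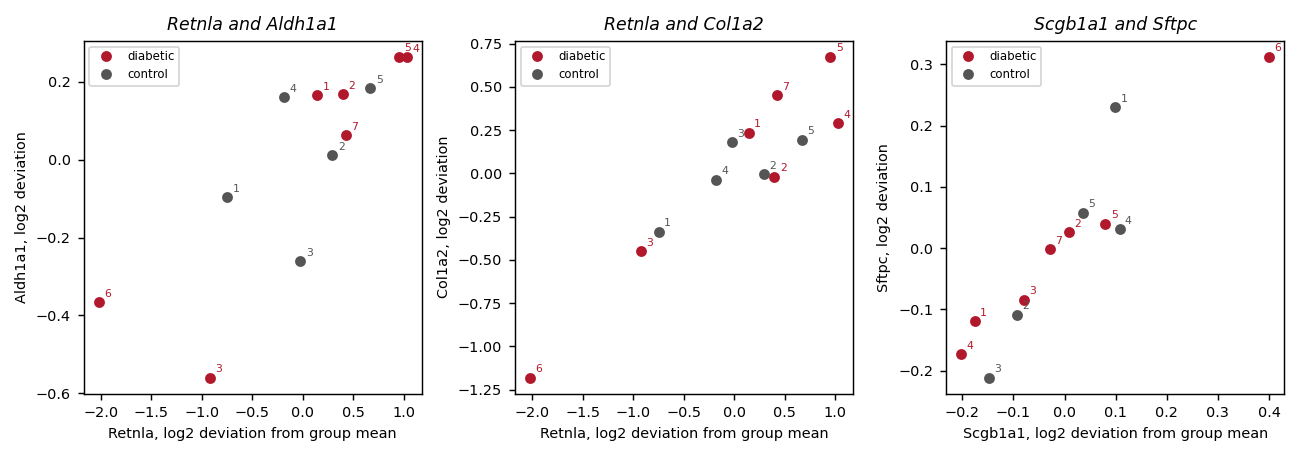
Deviations of log2 signal from the group mean in 7 diabetic (red) and 5 control (grey) animals, with the replicate number beside each point, for Retnla with Aldh1a1 (r = 0.81), Retnla with Col1a2 (r = 0.93) and Scgb1a1 with Sftpc (r = 0.93). Diabetic animals 3 and 6 lie at the low end in the first 2 panels, and diabetic animal 6 at the high end in the last.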

How the data were processed

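Total RNA of whole lung was hybridized to Affymetrix RAE 230A arrays by the authors, 1 array per animal. The deposited values are MAS 5.0 signals, an intensity on a linear scale with 1 value per probe set and array. They were taken to be scaled to a common trimmed mean, a step that the methods of the study do not name. Signals were analysed on the log2 scale after 1 value not above 0 had been set to 0.1. The 57 control probe sets and the 40% of the others with the lowest mean log2 signal over all 12 arrays were left out. Diabetic and control lung were compared over the remaining 9520 probe sets with limma 3.58.1 in R 4.3.3 (lmFit, eBayes with an intensity trend), two-sided, with Benjamini-Hochberg adjustment and a threshold of 0.05. The scripts were tested on simulated data. The number of arrays limits the precision.

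Probe sets were named through Entrez IDs (12748) or the symbols of the annotation, and 312 that name several genes were left unnamed. A gene of a list was represented by its brightest probe set. Members and lists were chosen with earlier results of these data known. All 7 airway genes are named, of each airway list the 8 other genes with the smallest p, of the other lists up to 3, and the 5 genes most like Scgb1a1 and Foxj1. Correlations used python 3.11.15. Alternatives covered scaling, a pseudocount of 64, filters, variance models, RNA integrity ratios, a replicate block, the scale of the test and leaving out each animal. The Bayesian analysis of variance named in the methods of the study was not used here.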

Additional observations from a re-analysis of the deposited data

Results flagged for a closer look

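Each group of each of the 7 genes, and the mean correlation of each array with its own group, was examined for a single animal far from the others by Dixon's criterion, 16 groups in all. Chance alone would mark about 1 in 20. The Scgb1a1 signal of diabetic animal 6, 28182.5, stood apart from the other 6 diabetic animals, with a gap of 0.584 of the group's range, which is above Dixon's critical value for 7 samples. It was the only value marked. Sftpc and the highest signal of the array were also at their group's maximum in this animal, and Retnla was at its group's minimum. The highest signal of the array in control animal 4, 30536, was above that of diabetic animal 6, 30355.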

How the results depend on the processing

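The count of 16 probe sets at an adjusted p under 0.05 was 25 with quantile normalization, 7 without the filter, 9 without the intensity trend, 80 with array weights, 288 with the GAPDH ratio and 27 with the beta-actin ratio as a covariate, and 2 to 30 when 1 animal was left out (2 without control 2 or 4, 30 without diabetic 6). The cause was not tested. In none of the 23 alternatives did 1 of the 7 genes pass. Aldh1a1, Gabrp, Foxj1 and Spa17 were below 0 in all 23. Values close to 0 changed sign. Scgb1a1 had 0.0035 with arrays centred on their median and 0.30 with the GAPDH ratio, and -0.090 to 0.011 when 1 animal was left out. Retnla had -1.56 with the GAPDH ratio and -0.14 to 0.38 when 1 animal was left out. Tekt1 had -0.041 with the replicate block and -0.012 to 0.17 when 1 animal was left out.

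The labels number the animals in both groups and do not say that the numbers mark pairs. Deviations of same-numbered animals correlated at -0.12 to 0.04, which cannot exclude a pairing with a weak effect. With the replicate block 11 probe sets passed and Aldh1a1 had a log2 change of -0.55 (adjusted p = 0.0719 in limma). Leaving out 1 animal gave r of 0.78 to 0.85 for Aldh1a1 and Retnla, 0.64 to 0.80 for Gabrp and Retnla and 0.53 to 0.77 for Tekt1 and Spa17. Averaging the probe sets of a gene gives the same values for the 7 airway genes, since each has 1. With 12 arrays, and with Gabrp, Foxj1 and Spa17 near or under the filter, small changes of these genes could not be detected.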
